A study of Mus musculus with 36 samples.

Results

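Gemcitabine was added to TP-0903 in 5 mouse pancreatic tumours, which were compared with 3 tumours of mice given TP-0903 alone. These 8 tumours were part of a series of 36. The tumours had grown from KPfC BMF-A3 cells, which are pancreatic cancer cells of the mouse, placed orthotopically in WT C57BL/6 animals in the pancreas, and RNA was taken from the whole tumour. In the first arm the mice received TP-0903 by gavage at 25 mg/kg every day, and in the other arm the same TP-0903 together with gemcitabine at 25 mg/kg into the peritoneum, 3 times a week. Both arms were treated from day 10 after implantation, and the mice were killed on day 35. The other arms, used for a second comparison, were vehicle (6 tumours), gemcitabine (4), anti-PD1 (4), gemcitabine with anti-PD1 (4), TP-0903 with anti-PD1 (4), and all 3 agents together (5), at the same doses and with the anti-PD1 antibody at 5 mg/kg into the peritoneum 2 times a week. The labels give no age or sex and name a single tumour line, and nothing in them says that any mice shared a cage or a litter.

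The compared tumours were selected on treatment and on liver transcripts: the other TP-0903 tumour, replicate 3, was left out for these, and the values that chose the members are given as a description only. Its scaled count of H2-Q10, a class I-like gene expressed mainly in liver, was 38174, against 28.4 to 189 in the other 3 TP-0903 tumours and 27.1 to 424 in the combination tumours. Ambp, a plasma protein precursor made by hepatocytes, stood at 71264 against 56.5 to 268 and 97.3 to 1442. The same library held 41.2 scaled counts of the epithelial adhesion gene Epcam, where the 8 compared tumours held 1053 to 3707. Cdh1, which encodes E-cadherin, and Muc1, an epithelial mucin, were present in all 8 compared tumours at 1106 to 2821 and at 1202 to 2723. The pancreatic tumour label therefore had its epithelial markers in every compared tumour.

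Gemcitabine is a nucleoside analogue that is built into DNA and stops its synthesis in dividing cells, and it is a standard drug in pancreatic cancer. TP-0903 inhibits Axl, a receptor tyrosine kinase of the TAM family that binds Gas6 and is known for dampening innate immune responses and for drug resistance in carcinoma cells. The nCounter panel reads barcoded probes bound to RNA directly, with no amplification step. It held 750 endogenous genes, mostly of immune cells, beside 20 housekeeping genes, 6 positive controls and 8 negative controls. A scaled count is the raw probe count divided by a lane factor from the geometric mean of the housekeeping genes. Scaled counts are given in the order of replicates 1, 2 and 4 for TP-0903 and 1 to 5 for the combination. Folds are log2 folds of TP-0903+Gemcitabine over TP-0903 with their standard error.

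The lanes of the arms differed in their control probes. The housekeeping signal relative to the positive controls was 0.403 ± 0.0160 (SD, n = 3) in TP-0903 and 0.234 ± 0.0824 (SD, n = 5) in the combination, with no overlap. The mean of the negative controls, which carry no target, was 8.95 ± 0.211 scaled counts (SD, n = 3) in TP-0903 and 15.8 ± 4.29 (SD, n = 5) in the combination. Both differences gave p = 0.0357 in a two-sided exact permutation test, where 0.0179 is the smallest p that 3 against 5 tumours allow. Total counts ran from 405412 to 446428 in TP-0903 and from 252251 to 385735 in the combination. All TP-0903 lanes lay on cartridge 1 and all combination lanes on cartridge 2, so cartridge and treatment cannot be told apart within these arms. Fits with the cartridge as a block, given below, take their shift between these cartridges from the arm given gemcitabine alone. No other arm had lanes on both, and there replicates 1 and 2 lay on cartridge 1 and replicates 3 and 4 on cartridge 2. Replicates 3 and 4 of that arm also carried an unexplained suffix in the lane identifier, and replicates 1 and 2 did not.

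**Figure D1:**
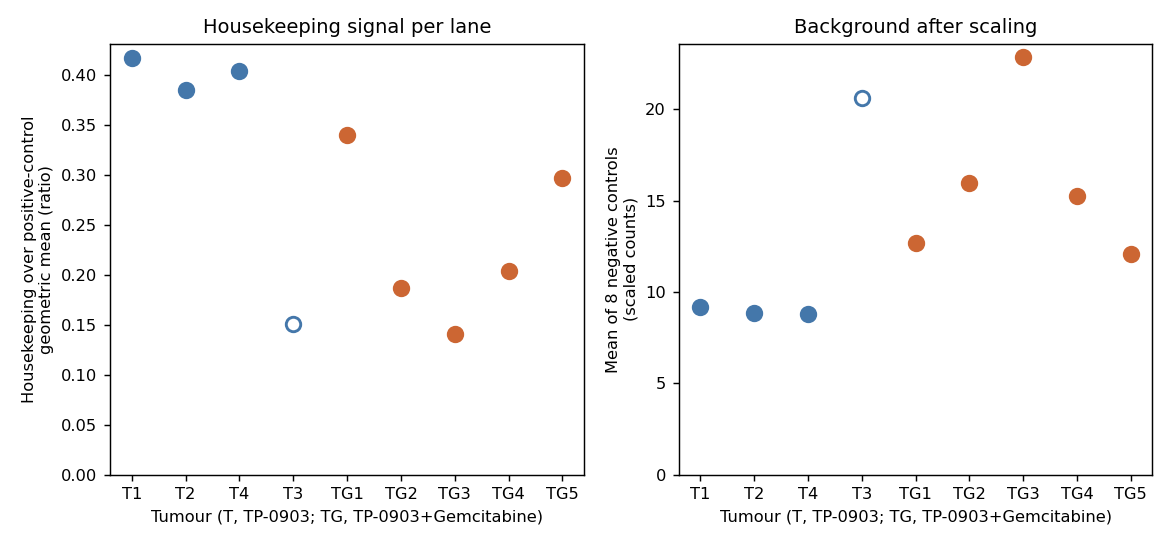
Left, housekeeping over positive-control geometric mean in each tumour; right, the mean of the 8 negative controls in scaled counts. Filled points are the compared tumours and the open point is TP-0903 replicate 3. The TP-0903 tumours lie at 0.386 to 0.418 on the left, above all combination tumours, and at 8.79 to 9.19 on the right, below all of them.

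No gene changed significantly when gemcitabine was added to TP-0903. Of 679 genes tested, edgeR's quasi-likelihood test called 0 higher and 0 lower at a Benjamini-Hochberg adjusted p under 0.05, which is 0% in each direction. At an unadjusted p under 0.05, 43 genes (6.33%) were higher and 18 (2.65%) lower in the combination. The 2 arms did not overlap in 23 genes (3.39%) with higher counts and in 15 genes (2.21%) with lower counts in the combination. DESeq2 called 1 gene, Pla2g1b, and limma called 0, with 27 higher and 21 lower at an unadjusted p under 0.05 and a pseudocount of 1. The median fold over all tested genes was 0.08, and 408 of the 679 folds were positive. When the lanes were scaled to the positive controls only, that median was -0.75 and 211 genes were called, 210 of them lower, so every direction here is relative to the housekeeping genes.

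The direction of a gene varied with how close its probe lay to background. Among 152 genes with a mean scaled count under 25 over the 35 libraries of the fit, 136 had a positive fold, and the median was 0.48. From 25 to 50 scaled counts, 108 of 142 genes had a positive fold, at a median of 0.21. From 50 to 200, 92 of 197 were positive, at a median of -0.03, and above 200, 72 of 188, at a median of -0.07. Of the 43 genes with an unadjusted p under 0.05 and higher counts, 30 lay under 25 scaled counts and 9 more under 50, while 10 of the 18 lower ones lay above 200. The same was seen in the 71 genes too close to background to be tested, 65 of which had a higher mean in the combination, with a median log2 ratio of 0.55. After the mean of the lane's negative controls was subtracted from each count, a setting chosen after seeing the data, the median of the lowest group was -0.11. Over all 679 tested genes, 254 then had a positive fold. With that setting, 8 genes (1.18%) were higher and 29 (4.27%) lower at an unadjusted p under 0.05, among them 8 of the 43 higher and all 18 lower genes, and all 43 kept a positive fold.

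**Figure D2:**
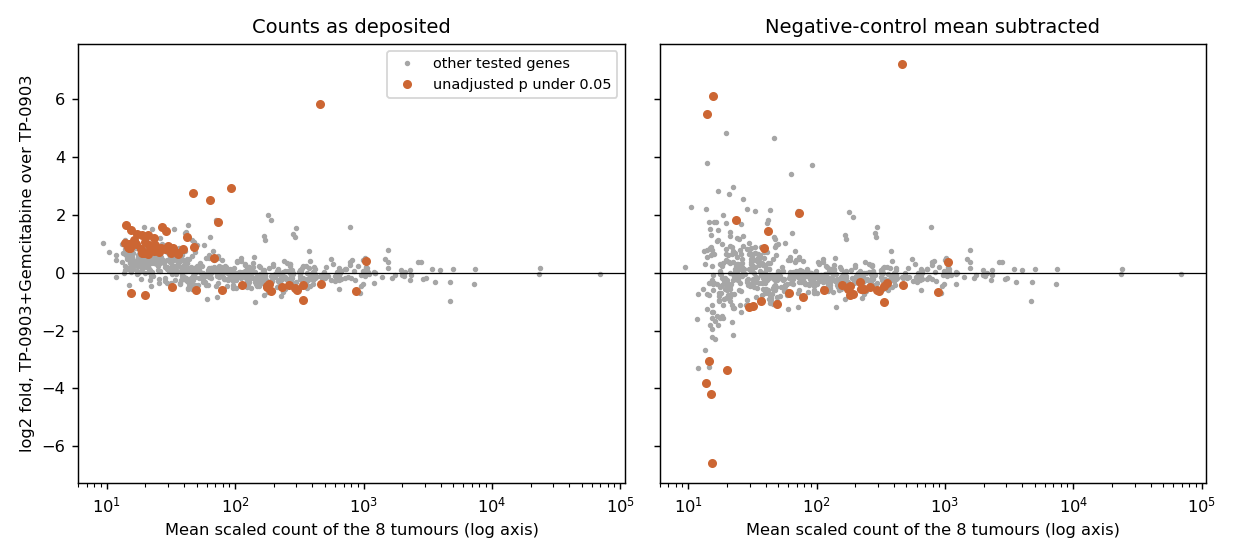
Log2 fold of TP-0903+Gemcitabine over TP-0903 (vertical axis) against the mean scaled count of the 8 tumours (horizontal log axis) for the 679 tested genes, from the counts as deposited on the left and after subtraction of the negative-control mean on the right. Orange points had an unadjusted p under 0.05. On the left the low-count genes lie mostly above 0, with a median of 0.48 in the group under 25 scaled counts over 35 libraries, and on the right that median is -0.11.

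The combination tumours also differed among themselves. Replicate 3 of the combination was the highest of its arm in 29 of the 43 higher genes and the lowest in 13 of the 18 lower ones. Over all tested genes it was the highest in 35.6% and the lowest in 18.7%, and replicate 2 was the highest in 45.95%. Replicate 3 had the lowest housekeeping signal of the arm, at 0.141 of the positive controls, and the highest scaled negative-control mean, at 22.9. It also held more liver transcripts than its arm: Hamp, the iron hormone hepcidin, stood at 1015 scaled counts against 17.6 to 108 in the other 4, and Tdo2, a tryptophan-degrading liver enzyme, at 316 against 7.98 to 39.6. The 14 of 16 measured liver genes that passed the low-count filter summed to 5799 in that tumour and to 1049 to 1448 in the other combination tumours, against 1220 to 2140 in TP-0903. Without it, 19 genes were higher and 7 lower at an unadjusted p under 0.05, and 0 were called. Counts also moved without TP-0903 replicate 1 (20 higher and 6 lower), without TP-0903 replicate 4 (18 and 5), without combination replicate 5 (65 and 13), without combination replicate 2 (33 and 35) and without combination replicate 4 (42 and 6), again with 0 called.

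The largest fold belonged to Pla2g1b, the pancreatic phospholipase A2 that acinar cells secrete. Its scaled counts were 6.55, 21.3 and 9.93 in the TP-0903 tumours and 29.5, 105, 2923, 508 and 62.2 in the TP-0903+Gemcitabine tumours. The arms did not overlap, and 1 of 3 TP-0903 lanes and 5 of 5 combination lanes were above background, that is, more than 2 SD above the mean of the negative controls of the same lane. The fold was 5.84 ± 1.63, with an adjusted p of 0.304 in edgeR and 8.47e-04 in DESeq2. Without combination replicate 3 it was 3.80, and with TP-0903 replicate 3 kept the edgeR adjusted p was 0.0137. With the cartridge as a block the fold was 4.13 ± 2.60 (edgeR adjusted p = 0.567), and with the block on background-subtracted counts it was 0.29 ± 1.58. Dmbt1, a mucin-like glycoprotein of gland and duct epithelium on the same pancreas list, stood at 13490.1, 28598 and 29137 in the TP-0903 tumours and 27180.3, 18113, 23022, 26593 and 20496 in the TP-0903+Gemcitabine tumours, with a fold of -0.04 ± 0.77. These were the only 2 of the 8 listed genes of normal pancreas on the panel, so acinar content of the pieces could not be followed by other markers. In TP-0903 replicate 3, kept for the edgeR adjusted p of 0.0137, these 2 genes summed to 35.6 scaled counts. Their sum was 13497 to 29147 in the other TP-0903 tumours.

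Most T cell genes had positive folds at counts near background. Of 18 tested T cell core genes, 16 had a positive fold, 0 were called, and the median fold was 0.67 against 0.08 for all genes (-0.21 against -0.75 with positive-control scaling). Cd3d, the delta chain of the T cell receptor complex, stood at 25.5, 26.8 and 16.04 in the TP-0903 tumours and 51.6, 71.4, 73.1, 41.7 and 30.3 in the TP-0903+Gemcitabine tumours. The arms did not overlap, and the fold was 1.22 ± 0.37 with an adjusted p of 0.304 in edgeR. After background subtraction it was 1.42. Thy1, carried by T cells and by fibroblasts, stood at 326, 286 and 667 in the TP-0903 tumours and 285, 512, 306, 223 and 267 in the TP-0903+Gemcitabine tumours. Its fold was -0.42 ± 0.33, and 0.06 without TP-0903 replicate 4. The coreceptor Cd4 was above background in 0 of the 8 lanes, at 8.68 to 11.5 and 10.4 to 26.3, and Cd8a, the coreceptor of cytotoxic T cells, likewise in 0 lanes, at 4.37 to 6.88 and 7.98 to 23.8. No fold is given for either. After background subtraction the list's median was 0.29 with 12 of 18 positive, and with the cartridge as a block it was 1.54. Summed counts of the list overlapped, from 649 to 990.1 in TP-0903 and from 570.2 to 1158 in the combination. Thy1, which fibroblasts also carry, was a large part of these sums. It gave 326, 286 and 667 of 649.1, 649.3 and 990.1 in TP-0903. In the combination it gave 285, 512, 306, 223 and 267 of 696, 1158, 926, 622 and 570.2. In whole tumour RNA, fewer cells of a type and less RNA per cell cannot be told apart.

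Among genes of cytotoxic lymphocytes and natural killer cells, all 16 tested had a positive fold with 0 called, and the median was 0.54 (-0.35 with positive-control scaling). All 16 lay under 50 scaled counts, and after background subtraction 7 of 16 were positive, at a median of -0.12. Klra2, an inhibitory lectin receptor of the Ly49 family, stood at 21.1, 25.2 and 32.1 in the TP-0903 tumours and 48.3, 72.6, 43.9, 29.2 and 39.9 in the TP-0903+Gemcitabine tumours, with a fold of 0.83 ± 0.27. Its place on this list does not show which cells carried it here. Klrb1, Klra5 and Il12a are not on this list and were named for their small p-values on the whole panel. Klrb1, of the NK1.1 family of receptors, stood at 12.4, 11.8 and 4.58 in the TP-0903 tumours and 18.8, 33.8, 29.3, 21.9 and 17.6 in the TP-0903+Gemcitabine tumours. Its arms did not overlap, its fold was 1.31 ± 0.38, and 1 TP-0903 and 2 combination lanes were above background. Klra5, another Ly49 receptor, had a fold of 0.96 ± 0.36 and arms that did not overlap. It was above background in 2 TP-0903 and 4 combination lanes, with a fold of 1.19 ± 0.85 after background subtraction. Il12a, the p35 subunit of interleukin 12, which drives interferon gamma in cytotoxic lymphocytes and natural killer cells, ran from 9.17 to 13.4 in TP-0903 and from 14.4 to 37.5 in the combination, with a fold of 1.31 ± 0.39. It was above background in 1 TP-0903 and 3 combination lanes, with a fold of 2.73 ± 1.42 after background subtraction. The adjusted p of Klrb1 and Il12a was 0.304 in edgeR.

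**Figure D3:**
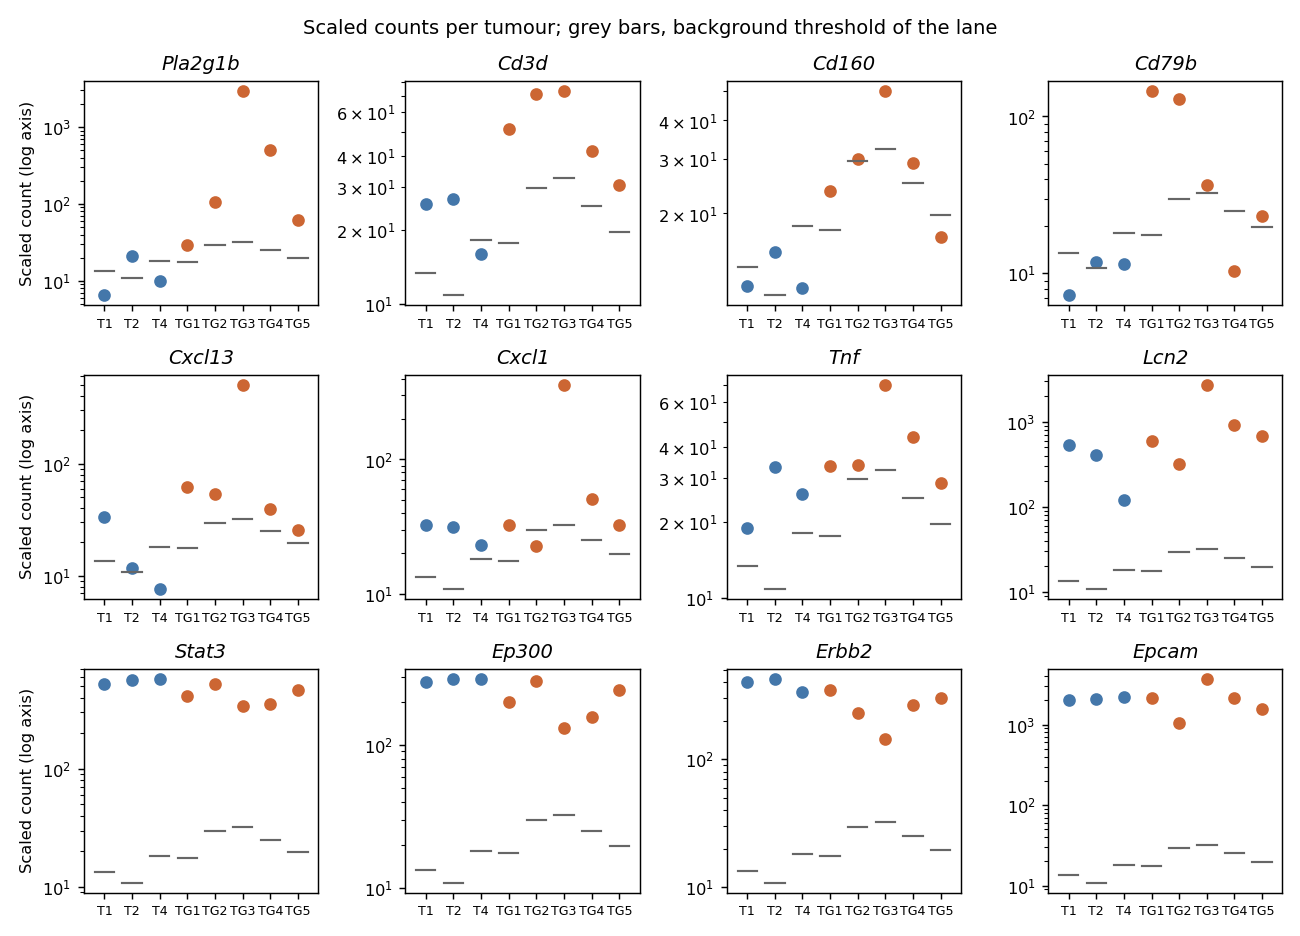
Scaled counts (vertical log axes, 1 range per gene) of 12 genes in the 3 TP-0903 tumours (T1, T2, T4, blue) and the 5 TP-0903+Gemcitabine tumours (TG1 to TG5, orange), with the background threshold of each lane as a grey bar. Pla2g1b, Cd3d and Cd160 do not overlap between the arms, TG3 stands high for Cxcl13 and Cxcl1, and Stat3, Ep300 and Erbb2 lie far above background.

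No checkpoint gene was called. Over 18 checkpoint genes the median was 0.18 with 13 positive, and 0.05 with 10 positive after background subtraction. Cd160, a receptor for the herpesvirus entry mediator on T and natural killer cells, had the smallest p of the panel. Its counts were 11.6, 14.99 and 11.5 in the TP-0903 tumours and 23.7, 30.1, 49.7, 29.2 and 16.8 in the TP-0903+Gemcitabine tumours. The arms did not overlap, 1 of 3 and 4 of 5 lanes were above background, and the fold was 1.21 ± 0.32 (edgeR adjusted p = 0.304). With the cartridge as a block it was 2.28, with an adjusted p of 0.062. Pdcd1, which encodes PD-1, stood at 4.37, 11.8 and 10.7 in the TP-0903 tumours and 10.6, 15.02, 32.2, 20.9 and 13.6 in the TP-0903+Gemcitabine tumours, above background in 1 lane of TP-0903 and 0 of the combination. No fold is given for it. Cd274, the PD-1 ligand PD-L1, ran from 50.5 to 90.2 in TP-0903 and from 43.8 to 77.6 in the combination, with a fold of -0.14 ± 0.35 that was 0.15 without TP-0903 replicate 4. Cd276, the B7-H3 ligand, had a fold of -0.38 ± 0.28.

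Factors of helper and regulatory T cells were split, with 5 of 10 positive and a median of 0.03, and with 1 of 10 positive after background subtraction. Stat4, the factor that carries the interleukin 12 signal, stood at 19.6, 19.7 and 21.4 in the TP-0903 tumours and 10.6, 15.02, 14.6, 11.5 and 10.4 in the TP-0903+Gemcitabine tumours. The arms did not overlap, with all 3 TP-0903 lanes and 0 combination lanes above background, and no fold is given. Il13, a type 2 cytokine, ran from 12.2 to 15.8 and from 13.6 to 42.4, with a fold of 0.66 ± 0.32 that was 0.30 without combination replicate 3. Slamf1, a receptor on activated lymphocytes, was above background in 0 TP-0903 lanes and 1 combination lane, at 4.73 to 7.28 and 6.38 to 29.3.

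B cell genes and genes of organised lymphoid tissue were high in part of the combination tumours. Of 17 B cell and plasma cell genes, 15 had a positive fold at a median of 0.67 (-0.17 with positive-control scaling), and 0 were called. Cd79b, the signalling chain of the B cell receptor, stood at 7.28, 11.8 and 11.5 in the TP-0903 tumours and 145, 129, 36.6, 10.4 and 23.1 in the TP-0903+Gemcitabine tumours. Replicates 1 and 2 of the combination lay far above every TP-0903 tumour and replicate 4 within their range, so the arms overlapped, and the fold was 2.75 ± 1.24. The B cell surface gene Ms4a1 (CD20), chosen after its values were seen, stood at 23.3, 42.6 and 16.8 in the TP-0903 tumours and 194, 180.3, 58.5, 29.2 and 24.7 in the TP-0903+Gemcitabine tumours, with a fold of 1.82 ± 0.91. Prdm1, the plasma cell factor Blimp-1, had a fold of -0.24 ± 0.42, and of -1.69 ± 1.16 after background subtraction. It was above background in 3 TP-0903 lanes and 1 combination lane. After background subtraction the list's median was 0.74 with 11 of 17 positive, without combination replicate 3 it was 0.66, and with the cartridge as a block it was 1.67.

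All 9 tested genes of lymph node or spleen had a positive fold, at a median of 0.92 and of 1.17 after background subtraction, and 0 were called. Their counts summed to 302 to 495 in TP-0903 and to 863, 1153, 1121, 265 and 258 in combination replicates 1 to 5. Thus 3 of the 5 combination tumours were above, and the others below, the TP-0903 range. Cxcl13, the chemokine that draws B cells into follicles, stood at 33.5, 11.8 and 7.64 in the TP-0903 tumours and 62.2, 53.8, 503, 39.6 and 25.5 in the TP-0903+Gemcitabine tumours. Replicate 3 lay far above the rest of its arm, and the fold of 2.93 ± 1.14 was 1.35 without it. T cell core genes, Thy1 included, summed to 696, 1158 and 926 in combination replicates 1, 2 and 3 and to 622 and 570.2 in replicates 4 and 5. The TP-0903 range was 649 to 990.1. B cell and plasma cell genes summed to 1291, 1388, 952, 625 and 674 in combination replicates 1 to 5, against 620.1 to 815 in TP-0903. None of these sums was corrected for background, which enters once for each gene. The scaled negative-control mean was 22.9 in combination replicate 3, 12.1 to 15.96 in the other combination tumours and 8.79 to 9.19 in TP-0903. The share of background in the sums of replicate 3 was not tested. Whether lymphoid tissue in the tumour pieces bears on these genes was not tested.

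**Figure D4:**
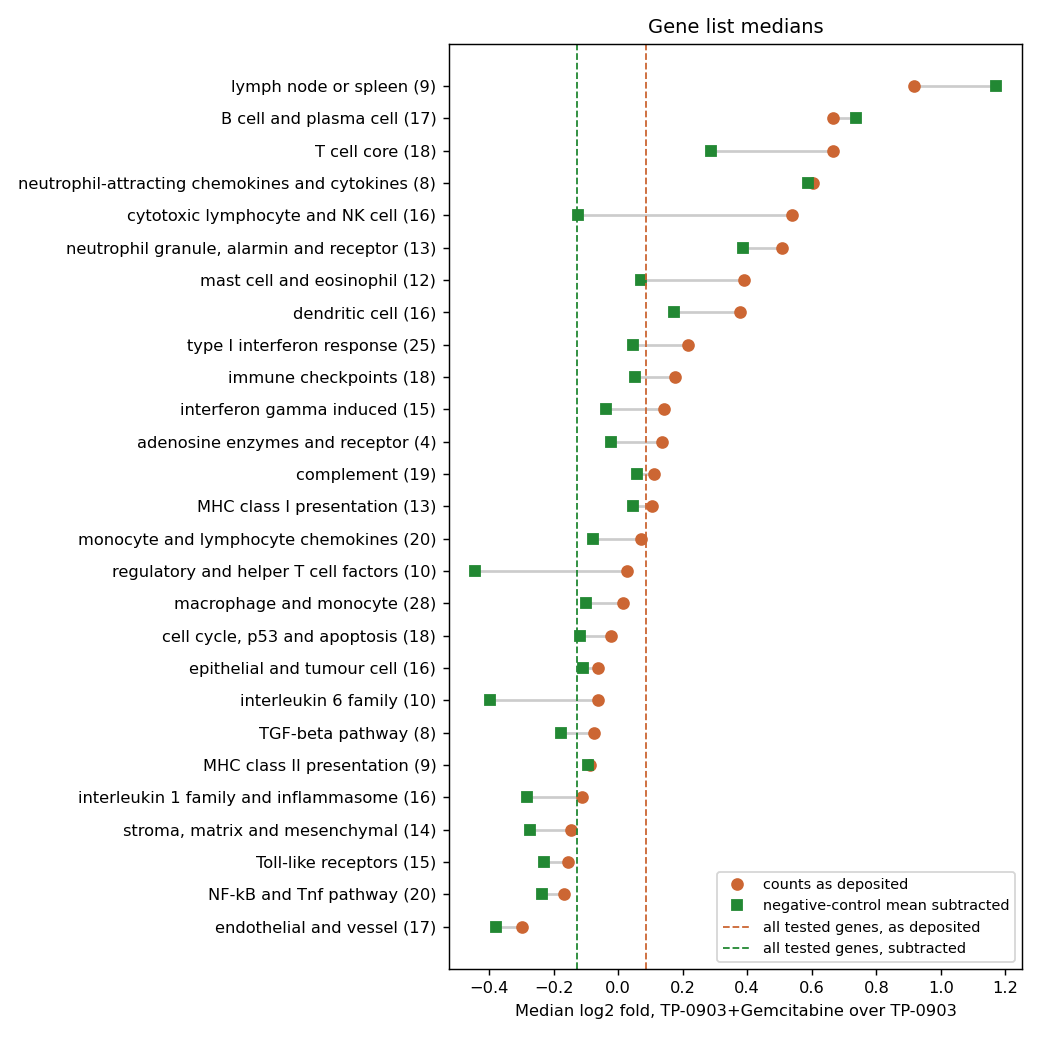
Median log2 fold of each gene list with more than 3 tested genes, the liver list left out (number of tested genes in brackets), from the counts as deposited (circles) and after subtraction of the negative-control mean (squares), with the medians of all tested genes as dashed lines at 0.08 and -0.13. All folds are relative to the housekeeping genes. The lymph node or spleen list lies highest of those plotted at 0.92, and the cytotoxic lymphocyte list moves from 0.54 to -0.12.

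Neutrophil genes differed widely among the combination tumours. Of 13 granule, alarmin and receptor genes, 10 had a positive fold at a median of 0.51 (-0.19 with positive-control scaling), with 0 called. S100a8, a calcium-binding alarmin of neutrophils, ran from 798 to 1239 in TP-0903 and stood at 3943, 1922, 2932, 234 and 223 in the combination. Its fold was 0.79 ± 0.97. Mpo, the peroxidase of neutrophil granules, stood at 80.04, 81.3 and 12.2 in the TP-0903 tumours and 247, 57.6, 78.99, 11.5 and 14.4 in the TP-0903+Gemcitabine tumours, and its fold of 0.51 ± 1.19 was 5.29 with the cartridge as a block and -0.54 without combination replicate 1. Csf3r, the granulocyte colony-stimulating factor receptor, had a fold of -0.52 ± 0.48. Lcn2, the siderophore-binding lipocalin of neutrophils and stressed epithelium, stood at 526, 407 and 122 in the TP-0903 tumours and 598, 316, 2694, 911 and 678 in the TP-0903+Gemcitabine tumours, and its fold of 1.56 ± 0.80 was 0.83 without combination replicate 3.

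All 8 tested cytokines and chemokines that attract neutrophils had a positive fold, at a median of 0.60 (-0.31 with positive-control scaling), with 0 called. The median was 0.25 without combination replicate 3. Cxcl1, a ligand of Cxcr2, showed how 1 tumour set a fold: it stood at 32.7, 31.6 and 22.9 in the TP-0903 tumours and 32.7, 22.5, 358, 51.1 and 32.7 in the TP-0903+Gemcitabine tumours. The fold was 1.75 ± 0.62, and 0.26 without that tumour. The inflammatory cytokine Tnf stood at 18.9, 33.1 and 25.97 in the TP-0903 tumours and 33.5, 33.8, 70.2, 43.8 and 28.7 in the TP-0903+Gemcitabine tumours, with a fold of 0.68 ± 0.32 that was 0.42 without it. Il6 and Il18, cytokines of innate inflammation, had their highest counts in the same tumour, at 77.5 and 1188. Their folds of 0.43 ± 0.43 and 0.76 ± 0.57 were -0.25 and -0.0055 without it. Arg1, the arginase of suppressive myeloid cells, ran from 560.1 to 982 and from 579 to 1950, with a fold of 0.44 ± 0.67, and Nos2, inducible nitric oxide synthase, had a fold of 0.50 ± 0.33.

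Of 28 macrophage and monocyte genes 16 had a positive fold, at a median of 0.01, and 0 were called. After background subtraction 8 of 28 were positive, at a median of -0.10. Ccr2, the receptor that brings monocytes out of the marrow, stood at 116, 136 and 373 in the TP-0903 tumours and 104, 260.4, 29.3, 43.8 and 74.97 in the TP-0903+Gemcitabine tumours, with a fold of -1.02 ± 0.61. The TP-0903 range was set by replicate 4, and the arms overlapped. Ccl7, a ligand of Ccr2, and Ccl11, the eosinophil chemokine eotaxin, were likewise highest in TP-0903 replicate 4, at 217 and 211 against 30.8 to 59.7 in the other TP-0903 tumours. Their folds of -0.83 ± 0.52 and -0.47 ± 0.52 were 0.48 and 0.57 without that tumour. Cd36, a scavenger receptor for oxidised lipid, stood at 96.8, 49.7 and 118 in the TP-0903 tumours and 128, 381, 407, 93.8 and 59.02 in the TP-0903+Gemcitabine tumours, with a fold of 1.27 ± 1.28. Marco, a scavenger receptor of alveolar and marginal zone macrophages, stood at 8.73, 25.2 and 13.8 in the TP-0903 tumours and 55.6, 72.6, 294, 19.8 and 15.2 in the TP-0903+Gemcitabine tumours. Its fold of 2.50 ± 1.01 was 1.35 without combination replicate 3.

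For dendritic cells, 13 of 16 genes had a positive fold, at a median of 0.38, and 0 were called. After background subtraction 9 of 16 were positive, at a median of 0.17. Cd1d2, a lipid-presenting molecule, had a fold of 0.82 ± 0.38, and the costimulatory ligand Cd80 one of -0.19 ± 0.38 that was 0.41 without TP-0903 replicate 4. In the mast cell and eosinophil list 10 of 12 genes had a positive fold, at a median of 0.39 and of 0.07 after background subtraction. Prg2, the eosinophil major basic protein, stood at 25.5, 20.5 and 14.5 in the TP-0903 tumours and 72.8, 131, 49.7, 6.25 and 11.96 in the TP-0903+Gemcitabine tumours. Replicates 1 and 2 of the combination were high and replicates 4 and 5 low, and the fold was 1.42 ± 0.84. Ms4a2, the beta chain of the IgE receptor of mast cells, was above background in 0 TP-0903 lanes and 1 combination lane, at 6.55 to 12.99 and 7.98 to 32.2.

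Interferon and antigen presentation genes showed no called difference. The type I interferon list had a median of 0.22 over 25 genes, and the genes induced by interferon gamma one of 0.14 over 15. After background subtraction these medians were 0.05 and -0.04. Cxcl9, an interferon gamma-induced T cell chemokine, was above background in 0 TP-0903 lanes and in 1 combination lane, at 8.00, 10.3 and 13.8 in the TP-0903 tumours and 14.7, 32.5, 21.9, 15.6 and 16.8 in the TP-0903+Gemcitabine tumours. Its arms did not overlap, and no fold is given. Cxcl11, a further ligand of the same receptor, did not overlap either, with a fold of 0.77 ± 0.33. It ran from 13.1 to 17.4 in TP-0903 and from 19.1 to 36.6 in the combination. Only 1 TP-0903 and 3 combination lanes were above background, and after background subtraction the fold was 0.66 ± 1.01. Oasl1, an interferon-induced antiviral regulator, had a fold of 0.76 ± 0.44. Ifnar1, a chain of the type I interferon receptor, stood at 352, 346 and 368 in the TP-0903 tumours and 243, 320.5, 317, 298 and 337 in the TP-0903+Gemcitabine tumours, without overlap and with a fold of -0.23 ± 0.14. Jak2, a kinase of cytokine receptors, had a fold of -0.20 ± 0.16. Class I presentation genes had a median of 0.11 (0.05 after background subtraction) and class II genes one of -0.09, with Tapbp (tapasin) at -0.23 ± 0.27, H2-Q2 at 0.60 ± 0.43, H2-DMb1 at -0.18 ± 0.47 and H2-DMb2 at 0.97 ± 0.76. For H2-Q2, 1 TP-0903 and 1 combination lane were above background, and the fold was 0.22 ± 1.34 after background subtraction. Summed class II counts ran from 1339 to 6456 in TP-0903 and from 985 to 10504 in the combination, so the ranges overlapped widely.

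Of the genes with the smallest p and lower counts in the combination, those below were above background in all 8 lanes. Their folds stand beside log2 differences of single housekeeping genes that reached -0.52 (Sap130) after scaling. The histone acetyltransferase Ep300 stood at 276, 289.5 and 288 in the TP-0903 tumours and 199, 282, 132, 157 and 243 in the TP-0903+Gemcitabine tumours, with a fold of -0.49 ± 0.19. Crebbp, its paralogue, had a fold of -0.52 ± 0.22, with 319 to 413 scaled counts in TP-0903 and 152 to 352 in the combination. In both genes replicates 3 and 4 of the combination were low and replicate 2 lay within the TP-0903 range. Sbno2, a transcriptional coregulator in myeloid cells, had a fold of -0.63 ± 0.24. Stat3, the transcription factor of interleukin 6 signalling, stood at 521, 559 and 577 in the TP-0903 tumours and 415, 521, 339, 356 and 467 in the TP-0903+Gemcitabine tumours. The arms were apart by less than the rounding here, since TP-0903 replicate 1 and combination replicate 2 both stood at 521. The fold was -0.40 ± 0.17, with an adjusted p of 0.552 in edgeR. Il1rap, the shared accessory chain of interleukin 1 receptors, stood at 62.6, 56.8 and 67.99 in the TP-0903 tumours and 40.1, 42.6, 49.7, 42.7 and 30.3 in the TP-0903+Gemcitabine tumours, without overlap and with a fold of -0.61 ± 0.28.

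The receptor Igf2r, which clears insulin-like growth factor 2, and Gtf3c1, a subunit of an RNA polymerase III factor, also did not overlap, with folds of -0.44 ± 0.19 and -0.39 ± 0.18. Tnfrsf11a, the receptor RANK, had a fold of -0.59 ± 0.24, and Atm, the kinase that responds to DNA double-strand breaks, one of -0.44 ± 0.20. Of the 18 lower genes, 5 kept an unadjusted p under 0.05 without combination replicate 3. The lists of the NF-kB and Tnf pathway, of Toll-like receptors and of the interleukin 1 and 6 families had medians of -0.17, -0.15, -0.11 and -0.06, with 0 genes called in any of them. Nfkb2, a subunit of the alternative NF-kB pathway, had a fold of -0.35 ± 0.21, the endotoxin receptor Tlr4 one of -0.29 ± 0.24 and Tlr6 one of 0.40 ± 0.31.

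No tumour cell gene was called. Of 16 epithelial and tumour cell genes, 7 had a positive fold and the median was -0.06. Epcam stood at 2041, 2103 and 2185 in the TP-0903 tumours and 2112, 1053, 3707, 2168 and 1555 in the TP-0903+Gemcitabine tumours, with a fold of 0.01 ± 0.48, and Cdh1 had one of -0.08 ± 0.30. Erbb2, the receptor kinase HER2, stood at 399.5, 424 and 335 in the TP-0903 tumours and 345, 230.4, 145, 263 and 301 in the TP-0903+Gemcitabine tumours. Replicate 3 was lowest, replicate 1 lay within the TP-0903 range, and the fold was -0.59 ± 0.25 with an adjusted p of 0.552 in edgeR. The median of 18 genes of cell cycle, p53 and apoptosis was -0.02, and 0 were called. Cdkn1a, the p53 target p21, which DNA damage induces, ran from 170.4 to 418 in TP-0903 and from 243 to 448 in the combination, with a fold of 0.02 ± 0.40.

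The target of TP-0903 had nearly equal means in the arms. Axl stood at 711.7, 592 and 675 in the TP-0903 tumours and 498, 926, 479.8, 637 and 740.1 in the TP-0903+Gemcitabine tumours, with a fold of -0.01 ± 0.23, and its paralogue Mertk, a receptor for clearing apoptotic cells, had one of -0.09 ± 0.41. The ligand Gas6 was not on the panel. Of 17 vessel genes 6 had a positive fold, and their median was -0.30. Cd34, of endothelium and stromal progenitors, had a fold of -0.80 ± 0.48 and the vessel-stabilising ligand Angpt1 one of 0.70 ± 0.63. Of 14 stromal and matrix genes 3 did, and their median was -0.15. Lrp1, an endocytic receptor of fibroblasts and macrophages, had a fold of -0.64 ± 0.29, and Snai1, a factor of epithelial to mesenchymal transition, one of 0.29 ± 0.41. The TGF-beta list had a median of -0.08, with Tgfb1 at 0.01 ± 0.24 and Tgfb3 at -0.67 ± 0.33. Complement genes had a median of 0.11 (0.06 after background subtraction), with the anaphylatoxin receptor C3ar1 at -0.79 ± 0.41. The complement regulator Cd59b was above background in 1 TP-0903 lane and 0 combination lanes, at 9.17 to 18.1 and 13.6 to 32.2. The adenosine list had a median of 0.14 (-0.02 after background subtraction), with the ectonucleotidase Entpd1 at -0.52 ± 0.56 and the receptor Adora2a at 0.39 ± 0.31.

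Gemcitabine had also been added on 3 other backgrounds, in 27 tumours that share no sample with the arms above: vehicle, anti-PD1, and TP-0903 with anti-PD1. Over the mean of these additions edgeR called 0 genes higher and 0 lower (0% each), with 25 (3.68%) higher and 46 (6.77%) lower at an unadjusted p under 0.05. DESeq2 called 5 higher and 6 lower, and limma 0. The difference between the addition to TP-0903 and this mean was also called in 0 genes, with 41 (6.04%) higher and 11 (1.62%) lower at an unadjusted p under 0.05, and DESeq2 and limma called 0 as well. The low-count genes had a median fold of 0.00275 on the other backgrounds, where they had 0.48 on TP-0903. Cartridges differed between the arms on these backgrounds too. All anti-PD1 lanes lay on cartridge 2 and all lanes of gemcitabine with anti-PD1 on cartridge 3. All vehicle lanes lay on cartridge 1, and the gemcitabine lanes on cartridges 1 and 2. TP-0903 with anti-PD1 lay on cartridges 2 and 3, and the 3 agents together on cartridge 3.

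The genes named here were selected on their values in 1 of these comparisons, so smaller folds in the other follow in part from that choice and are given as a description. Cd160 was at -0.06 ± 0.17 and Cd3d at -0.00 ± 0.18 on the other backgrounds. Klrb1 was at 0.06 ± 0.20 and Il12a at -0.00 ± 0.20. Pla2g1b was at 2.25 ± 0.72, a mean of -0.22 over vehicle, 6.28 over anti-PD1 and 0.69 over TP-0903 with anti-PD1, so a large fold was seen on 2 of 4 backgrounds. On both of these, TP-0903 and anti-PD1, the arms with and without gemcitabine shared no cartridge. Stat3 was negative in every background, at -0.24, -0.30 and -0.27, with a mean of -0.27 ± 0.09, and Crebbp had a mean of -0.28 ± 0.12. Cxcl13 was at -0.82 ± 0.55, and the difference of its 2 folds was 3.75, with an edgeR adjusted p of 0.513. Lcn2 was at -1.15 ± 0.41, and its difference was 2.71, with an adjusted p of 0.513 in edgeR. Mpo had the smallest p on the other backgrounds, at 2.65 ± 0.67 with an edgeR adjusted p of 0.0964, from 4.60 over vehicle, 2.77 over anti-PD1 and 0.57 over TP-0903 with anti-PD1. The scavenger receptor Cd163, chosen after its values were seen, was at -1.49 ± 0.38 there and at 0.05 ± 0.69 on TP-0903.

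**Figure D5:**
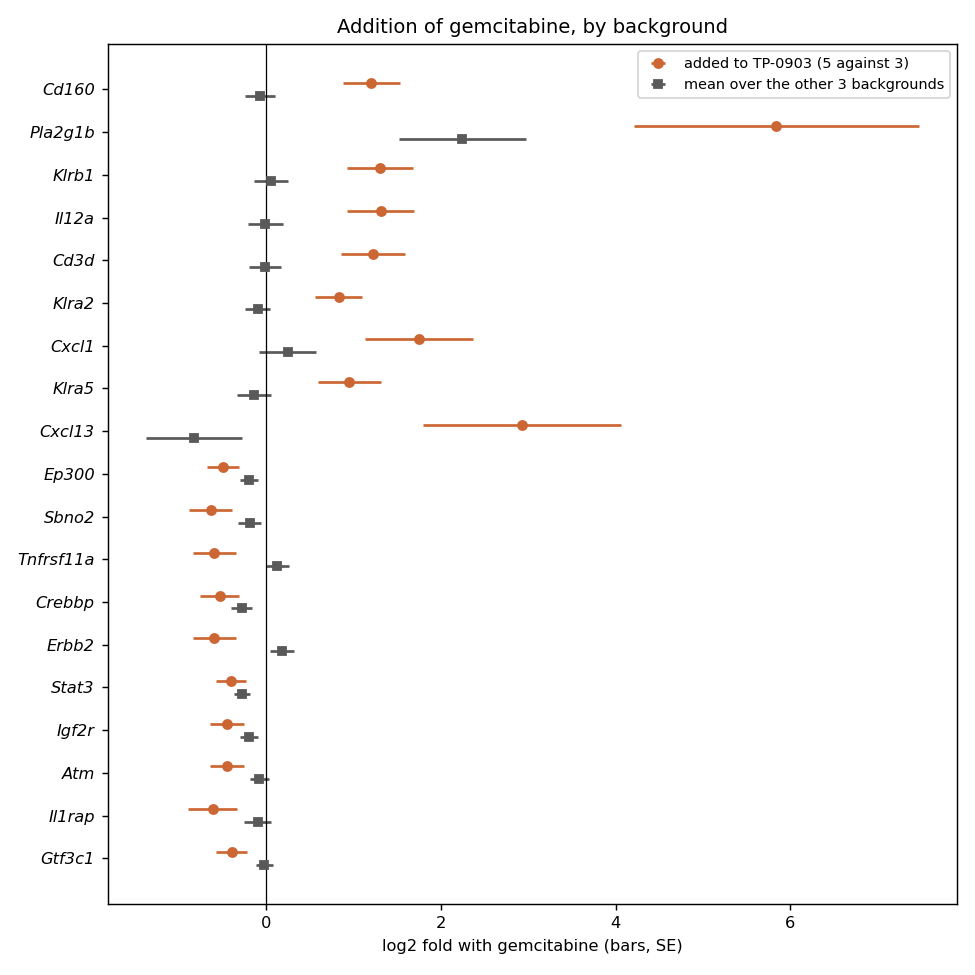
Log2 fold with gemcitabine for 19 of the 24 genes with the smallest p-values on TP-0903 (9 higher and 10 lower, without those that had no lane above background in 1 arm): circles, added to TP-0903; squares, mean of its addition to vehicle, anti-PD1, and TP-0903 with anti-PD1; bars, standard error. All folds are relative to the housekeeping genes. Pla2g1b has the largest fold in both, at 5.84 and 2.25, and Stat3 lies at -0.40 and -0.27.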

How the data were processed

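RNA of 36 tumours was measured on the mouse nCounter PanCancer Immune Profiling Panel, and 8 tumours form the main comparison. The authors deposited whole-number counts for 770 genes, and a lane report that, per the file headers, also holds other values such as lane attributes, control probes and cartridges. The series' design text speaks of normalization to control and housekeeping probes, yet 27720 of 27720 deposited values equalled the raw counts of the lane report, so they were treated as raw counts. Of 36 lane identifiers, 7 carried a suffix that no source explains, 2 of them among the 3 TP-0903 lanes and 0 among the 5 combination lanes. Groups came from the treatment labels. Whether replicates came from separately housed animals is not stated. The edgeR p-values set a difference against the spread between tumours within arms, estimated from 35 libraries in 8 arms.

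Each lane's library size was set in proportion to the geometric mean of its 20 housekeeping genes. Testing required a count more than 2 SD above the negative-control mean of the lane in 4 or more of 35 lanes (all but TP-0903 replicate 3), which left 679 of 750 genes. edgeR 4.0.16 (quasi-likelihood, robust, R 4.3.3) fitted 8 arms, with Benjamini-Hochberg adjustment over all tested genes and a common biological coefficient of variation of 0.430. The alternatives used limma 3.58.1 with pseudocounts of 1 and 20, DESeq2 1.42.0, other scalings and filters, blocks and left-out tumours. The script was tested on simulated data. The 14 liver genes that passed the filter were in the fit, the adjustment and the counts of genes, but their own p-values are not reported. Where an arm had no lane above background, counts are given and no fold.

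Named genes were the 12 with the smallest p in each direction, the member with the smallest p in each direction of each of 32 lists (447 of 534 listed genes on the panel, 408 tested), and a fixed set including Axl, Cd274 and Epcam. Of the genes this rule names, 2 are not reported here. Members and lists were chosen with earlier results of these data known. No replicate pair agreed within sampling noise: the closest had a chi-square of 11.8 per gene. The RefSeq gene table held 746 of the 770 probes' accessions, 9 of them with a different symbol. Depth limits genes near background, and the counts carry no molecular identifiers beyond the probe barcodes.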

Additional observations from a re-analysis of the deposited data

Results flagged for a closer look

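Of 78 measured values tested in the 5 combination tumours, 13 had a single tumour far from the others, by Dixon's ratio of its gap to the range above 0.71. For independent, normally distributed values chance flags about 1 in 20 such groups. The flagged values were unlogged counts from the same 5 tumours, of genes chosen in part on those counts. The 13 of 78 can therefore not be set against that rate. In 9 genes the distant tumour was combination replicate 3. Its count was the highest of the arm for Pla2g1b (ratio 0.835), Cxcl1 (0.915), Cxcl13 (0.923), Il13 (0.820), Lcn2 (0.750), H2-Q2 (0.874), Il18 (0.805), Il6 (0.757) and Marco (0.794). Combination replicate 2 was highest for Thy1 (0.714), Tlr6 (0.730) and Entpd1 (0.729). Combination replicate 1 was highest for Mpo (0.714). Replicate 3 also had the lowest housekeeping signal of the arm, at 0.141 of the positive controls, and 5799 summed scaled counts of 14 liver genes, against 1049 to 1448 in the other 4, and the part of either in these values was not tested.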

How the results depend on the processing

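The added subtraction of the negative-control mean, with and without the cartridge as a block, was chosen after seeing the data. For gemcitabine added to TP-0903, edgeR called 0 genes, and this count was 211 when lanes were scaled to the positive controls only, 1 with DESeq2 and 20 with TP-0903 replicate 3 kept, of which 13 were liver genes among 19 lower ones. For gemcitabine on the other 3 backgrounds the count was 0, and 11 with DESeq2 and 1 with the first digit of the title as a block. For the difference between them it was 0, and 4 scaled to the positive controls only and 9 with TP-0903 replicate 3 kept. The cause was not tested, except that the kept library holds the liver transcripts. The difference could not be computed with only the compared arms in the fit. Every other alternative gave 0, and leaving out 1 compared tumour at a time gave counts from 0 to 0 in all 3 comparisons. At an unadjusted p under 0.05, leaving out 1 tumour gave 18 to 65 higher and 5 to 35 lower genes for gemcitabine added to TP-0903, and background subtraction gave 8 (1.18%) higher and 29 (4.27%) lower against 43 and 18. Scaling with TMM factors gave 32 and 29, and the cartridge as a block 68 and 19. No paired analysis was possible because the labels give no replicate numbers that the arms share. Depth limits the 294 tested genes under 50 scaled counts, since negative controls reached a mean of up to 22.9. Over the 68 tested genes whose folds are reported by the rule, 1429 of 1561 values kept their direction and side of the threshold, 33 passed the threshold, 0 lost it and 99 took the opposite sign, and 32 genes had no reversal. The other 7 named genes had no lane above background in 1 arm or in both. Scaled to the positive controls only, the log2 folds that took the opposite sign were Il13 -0.23, Nos2 -0.41, Cxcl11 -0.089, Cd1d2 -0.090, H2-Q2 -0.28, Oasl1 -0.012, Angpt1 -0.29, Snai1 -0.63, Tgfb1 -0.73, Tnf -0.20, Il18 -0.26, Il6 -0.60, Tlr6 -0.40, Adora2a -0.42, Arg1 -0.48, Mpo -0.053, Epcam -0.86 and Cdkn1a -0.86. With TP-0903 replicate 3 kept, the log2 folds that took the opposite sign were Cxcl1 -1.46, Lcn2 -0.92, Cd1d2 -0.19, H2-Q2 -0.042, Jak2 0.0067, Tlr4 0.065, Dmbt1 0.37, Marco -0.35, Axl 0.29, Arg1 -2.04 and Cdh1 0.23. With the cartridge as a block on background-subtracted counts, the log2 folds that took the opposite sign were Il13 -5.59, Nos2 -0.48, Cxcl11 -0.92, H2-Q2 -1.69, Mertk 0.068, Angpt1 -0.51, Il6 -0.68, Axl 0.046 and Cdkn1a -0.14. With the cartridge as a block, the log2 folds that took the opposite sign were H2-DMb1 0.25, Mertk 0.25, Axl 0.072, Cd274 0.064 and Cdkn1a -0.074. With limma and a pseudocount of 1, the log2 folds that took the opposite sign were Tgfb1 -0.034, Dmbt1 0.026, S100a8 -0.029 and Epcam -0.12. With limma and a pseudocount of 20, the log2 folds that took the opposite sign were Tgfb1 -0.032, Dmbt1 0.026, S100a8 -0.0036 and Epcam -0.11. With the first digit of the title as a block, the log2 folds that took the opposite sign were Cd80 0.0090, Dmbt1 0.11, Axl 0.070 and Cdkn1a -0.036. After background subtraction, the log2 folds that took the opposite sign were Snai1 -0.27, Tgfb1 -0.0094, Adora2a -0.096 and Cdkn1a -0.016. With TMM factors, the log2 folds that took the opposite sign were Tgfb1 -0.067, Epcam -0.074 and Cdkn1a -0.062. With median-of-ratios size factors, the log2 folds that took the opposite sign were Tgfb1 -0.053, Epcam -0.059 and Cdkn1a -0.049. Leaving out 1 compared tumour at a time, the log2 folds that crossed 0 ranged for Tgfb1 from -0.14 to 0.13, Axl from -0.16 to 0.086, Epcam from -0.29 to 0.18, Cdh1 from -0.25 to 0.070, Prdm1 from -0.41 to 0.011, Dmbt1 from -0.32 to 0.13, Cdkn1a from -0.28 to 0.28, Thy1 from -0.66 to 0.056, Ccl7 from -1.26 to 0.48, Ccl11 from -0.88 to 0.57, Cd80 from -0.47 to 0.41, H2-DMb1 from -0.63 to 0.056, Mertk from -0.25 to 0.12, Entpd1 from -0.83 to 0.012, Cd274 from -0.30 to 0.15, Mpo from -0.54 to 0.83, Il18 from -0.0055 to 0.97 and Il6 from -0.25 to 0.64.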
